A study of Mus musculus with 12 samples.

Results

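The genes described here are Myc and 37 genes of ribosome production, followed by RNA-seq in 12 libraries from mouse CD4+ T cells. They were taken by gene symbol from the 45777 genes of the deposited table, and all 38 were found. By their textbook roles they comprise Myc itself, 7 genes of RNA polymerase I and its cofactors, 3 abundant nucleolar proteins, 8 proteins of the small nucleolar ribonucleoproteins (snoRNPs), 12 assembly factors of the small ribosomal subunit and 7 of the large subunit. The CD4+ T cells came from the spleen, and every culture contained an antibody against CD3, the signalling part of the T-cell receptor, at 0.5 ug/mL over 3 days. The 4 groups of 3 libraries received anti-CD3 alone, anti-CD3 with *Lactobacillus acidophilus* (LA), anti-CD3 with FK506, or anti-CD3 with both (the combination). FK506, also called tacrolimus, is an immunosuppressant that inhibits calcineurin. The sample labels name wild-type Balb/c mice aged 7 weeks, whereas the methods name B6 mice. The RNA-seq methods give no dose of LA or FK506, and the bacteria were heat-inactivated in the splenocyte cultures of the same study. Nothing says that the 3 libraries of a group came from separate animals or cultures, so p-values measure only the spread between these samples, which may be technical.

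Myc is a transcription factor that rises when T cells are activated and drives cell growth. With its partner Max it binds the sequence CACGTG, the E-box, and genes of ribosome production are among its best known targets. RNA polymerase I transcribes the ribosomal RNA precursor in the nucleolus, snoRNPs modify that precursor at chosen nucleotides, and assembly factors then cut and fold it into the small and large subunits. A T cell that prepares to divide needs many new ribosomes, so these genes are usually high in stimulated cells.

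Total counts ranged from 45416397 to 64658165 per library, and the 4 libraries of replicate 1 were the deepest. A member gene had between 773 counts (Nop16) and 93328 counts (Npm1) in a library, so none was near the limit of detection. Levels are given as FPKM, fragments per length of transcript and per depth of the library, which can be compared between genes because of the scaling to length. Changes are log2 fold changes with their standard error (SE) from edgeR's quasi-likelihood test on the counts, with p-values adjusted over all 23585 genes tested, and a gene was called at an adjusted p under 0.05. Replicate 2 of anti-CD3 alone and replicate 3 of FK506 stood apart. Replicate 2 of anti-CD3 alone held the highest level of all 12 libraries for 14 members, with Rrp9 at 2.41 times, Nhp2 at 1.91 times and Bysl at 1.64 times the next-highest anti-CD3 library. FK506 replicate 3 held the highest level of all 12 libraries for 15 members. Within FK506, replicate 3 was the highest library for 37 of 38 members, and Polr1c was the exception.

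All 38 genes were lower under the combination than under anti-CD3 alone, and for all 38 the 3 combination libraries lay below each of the other 9 libraries. Among all genes tested, 21.8% were called lower in this comparison, and 10.7% lay below the other 9 libraries without overlap. The median change of the members was -1.22 on the log2 scale, against 0.02 for all genes tested, and 27 of the 38 were at least 2-fold lower, a call that 10.8% of all genes met. With FK506 alone 5 of them were called lower (Myc, Polr1c, Rrp12, Nob1 and Rrp1b), near the 8.81% of all genes tested that were, and this count ranged from 1 to 8 when 1 library was left out. With LA alone none was called, where 0.0509% of all genes were called lower. Without anti-CD3 replicate 2, all 38 were again called lower in the combination, with a median of -1.14, and 24 were at least 2-fold lower (8.92% of all genes), with Polr1c, Nob1, Pes1 and Wdr12 lost and Heatr1 added. The members' counts added up to 0.736%, 0.837% and 0.850% of all counts in the anti-CD3 libraries and to 0.385%, 0.406% and 0.400% in the combination libraries. In bulk RNA, fewer cells of one type and less RNA per cell cannot be told apart.

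**Figure D1:**
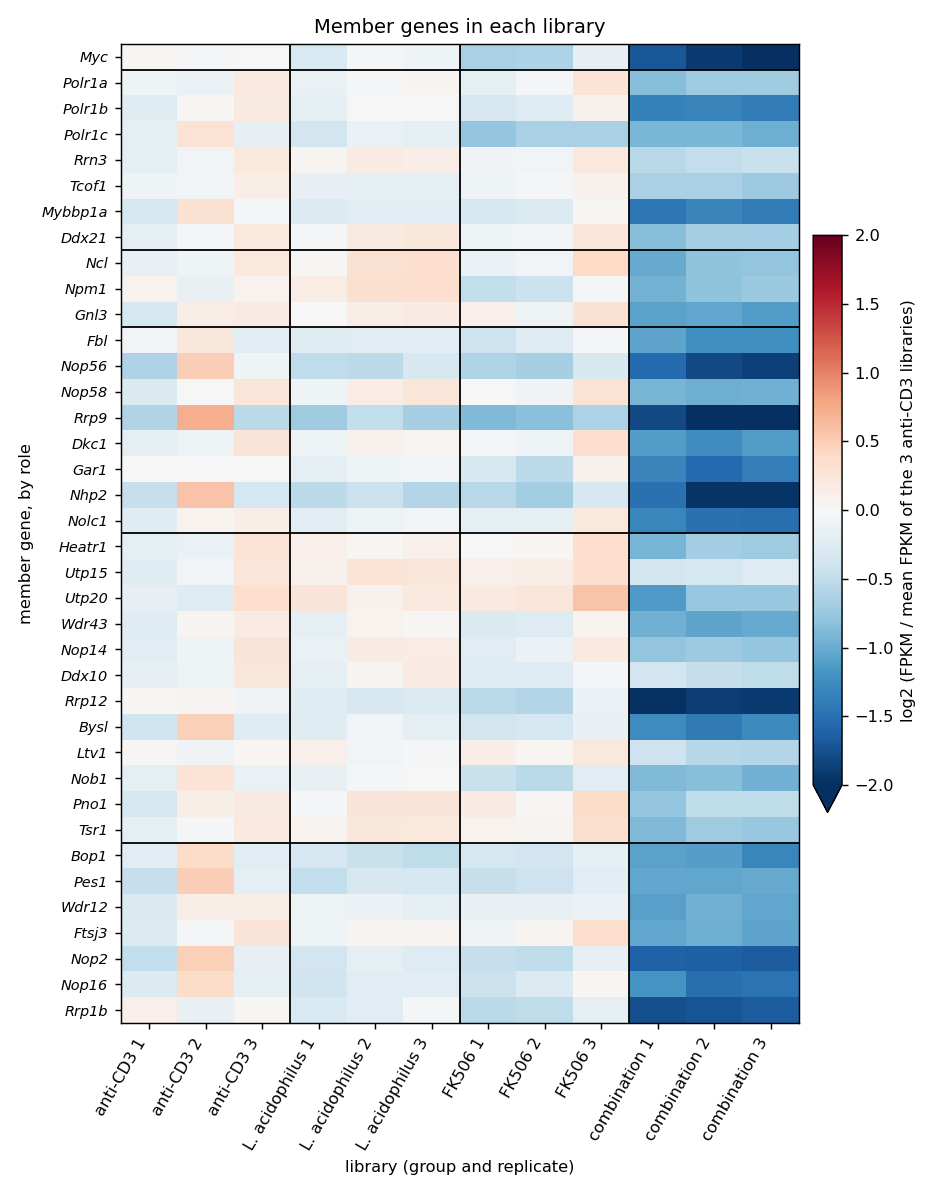
Heat map of the 38 member genes (rows, by role) in the 12 libraries (columns), as log2 of the FPKM over the mean FPKM of the 3 anti-CD3 libraries. The 3 combination libraries are blue for every gene, and anti-CD3 replicate 2 and FK506 replicate 3 hold the deepest red cells.

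Other cell populations moved with the groups. The cells carried their defining T-cell markers: Cd4 was at 139 to 149 FPKM with anti-CD3 alone and at 237 to 256 FPKM in the combination. The FPKM of 8 B-cell markers summed to 32.0 to 55.7 with anti-CD3 alone, 21.5 to 32.1 with LA, 214 to 429 with FK506 and 132 to 153 in the combination, with none of the 8 at 0 throughout a group. The FPKM of 8 myeloid markers summed to 2.52 to 4.17, 3.83 to 9.43, 6.99 to 21.8 and 54.0 to 93.3 in the same order, with Csf1r at 0 in all anti-CD3 libraries. Of 3 NK-cell markers the sum reached at most 2.00 FPKM, and of 2 CD8 markers at most 9.02 FPKM. In the combination against anti-CD3, edgeR called 6 of 8 B-cell, 7 of 8 myeloid and 2 of 3 NK-cell markers higher and neither CD8 marker. Of 8 T-cell markers, 2 were higher and 1 was lower. Among all genes tested, 21.5% were called higher and 21.8% lower in this comparison. With FK506 alone, 8 of 8 B-cell, 7 of 8 myeloid, 2 of 3 NK-cell and 1 of 2 CD8 markers were higher. There, 4 of 8 T-cell markers were lower (median of the 8 -0.49), and 10.2% of all genes tested were called higher and 8.81% lower. The T-cell markers summed to 1411 to 2219 FPKM with anti-CD3 alone, 1538 to 1698 with LA, 1338 to 1482 with FK506 and 1824 to 2182 in the combination. The part of these populations in the members' levels was not tested.

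Myc (chr15:61985341-61990361, GRCm38.p6) lay at 94.0, 89.4 and 92.8 FPKM with anti-CD3 alone and at 74.9, 90.6 and 86.9 FPKM with LA. It lay at 58.4, 60.04 and 82.2 FPKM with FK506 and at 28.3, 24.5 and 22.6 FPKM in the combination. The LA and anti-CD3 libraries overlapped, the 3 FK506 libraries lay below all anti-CD3 libraries, and the highest combination library was below the lowest FK506 library. The means were 92.0 ± 2.38, 84.1 ± 8.23, 66.9 ± 13.3 and 25.2 ± 2.91 FPKM (SD, n = 3). Against anti-CD3 alone, Myc was 4.21-fold lower in the combination (log2 fold change -2.07, SE 0.16, edgeR adjusted p = 7.6e-06), the third largest fall among the 38 genes. It was the largest without anti-CD3 replicate 2 (-2.07, against -2.06 for Rrp12 and -1.64 for Rrp9). It was also lower than with FK506 alone (-1.502, SE 0.16, adjusted p = 0.0002) and than with LA alone (-1.86, SE 0.16, adjusted p = 3.5e-05). With FK506 alone the change was -0.57 (SE 0.15, adjusted p = 0.0227), and this call was lost without FK506 replicate 1 or 2, or anti-CD3 replicate 1 or 2. With LA alone the change was -0.21 (SE 0.15, adjusted p = 0.548).

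Promoter sequences from RefSeq (GRCm38.p6), running from 250 bases before to 50 after the annotated start, were matched for 32 of the 38 genes, and those of Myc, Npm1, Fbl, Rrp12, Bop1 and Tcof1 were not used here. They are shown because the members fell together with Myc and the E-box is the motif of Myc and Max. The letters CACGTG, which read the same on both strands, occurred in 9 of the 32 promoters (28.1%), against 10.5% of the 14576 tested genes with a promoter and 7.15% of all 32851 promoters. Only Rrn3 and Nop2 held one before the start. The 250 bases before the start of Nop2 (chr6:125131633-125131882, plus strand) and of Rrn3 (chr16:13780449-13780698, plus strand) read as below from 5′ to 3′, with the E-box in capitals, 60 bases before the start of Nop2 and 215 and 48 bases before that of Rrn3.
Nop2: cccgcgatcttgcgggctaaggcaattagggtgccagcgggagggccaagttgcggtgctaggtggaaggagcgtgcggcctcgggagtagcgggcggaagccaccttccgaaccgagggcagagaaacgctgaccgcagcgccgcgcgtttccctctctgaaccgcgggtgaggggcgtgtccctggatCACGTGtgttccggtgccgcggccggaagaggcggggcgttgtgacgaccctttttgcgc
Rrn3: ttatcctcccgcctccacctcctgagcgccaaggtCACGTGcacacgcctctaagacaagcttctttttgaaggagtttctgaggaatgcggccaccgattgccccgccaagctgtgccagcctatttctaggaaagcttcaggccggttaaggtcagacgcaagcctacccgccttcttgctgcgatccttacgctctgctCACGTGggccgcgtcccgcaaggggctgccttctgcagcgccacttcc

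In the other 7 promoters the first base of the E-box lay shortly after the start: Pes1 (base 2, chr11:3963965-3963994, plus strand), Wdr43 (base 17, chr17:71616220-71616249, plus), Tsr1 (base 24, chr11:74898092-74898121, plus), Ltv1 (base 28, chr10:13193092-13193121, minus), Pno1 (base 37, chr11:17211540-17211569, minus), Utp20 (base 37, chr10:88826765-88826794, minus) and Mybbp1a (base 40, chr11:72441347-72441376, plus). Their 30 bases around the motif, shown to let the flanks be compared, read from 5′ to 3′ on the strand of the gene, with the E-box in capitals.
Pes1: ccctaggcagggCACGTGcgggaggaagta
Wdr43: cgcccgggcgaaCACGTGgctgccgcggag
Tsr1: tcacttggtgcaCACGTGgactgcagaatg
Ltv1: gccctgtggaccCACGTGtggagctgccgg
Pno1: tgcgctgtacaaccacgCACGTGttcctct
Utp20: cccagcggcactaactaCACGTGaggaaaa
Mybbp1a: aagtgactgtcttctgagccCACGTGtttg

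The median change in the combination against anti-CD3 was -1.07 for the 9 genes with an E-box and -1.22 for the 23 without one. A variant motif, CACGCG or CGCGTG on the other strand, occurred in 10 of the 32 promoters (31.2%), against 16.6% of the tested genes with a promoter and 9.27% of all promoters. The medians were -1.38 with it and -1.13 for the 22 genes without it. These matches describe letters in a window and show no binding.

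The RNA polymerase I group fell by a median of 0.96 on the log2 scale in the combination against anti-CD3, with 7 of 7 genes lower and 3 of them at least 2-fold (2 without anti-CD3 replicate 2). Mybbp1a, a nucleolar protein that binds Myb, fell furthest in this group. Its levels were 77.2, 122 and 96.6 FPKM with anti-CD3, 81.8, 85.7 and 85.0 FPKM with LA, 77.5, 81.9 and 101 FPKM with FK506 and 36.1, 39.4 and 37.4 FPKM in the combination (log2 fold change against anti-CD3 -1.60, SE 0.16, adjusted p = 2.4e-05). The combination libraries sat under the range shared by the other 3 groups. Polr1b, the second-largest subunit of the enzyme, was the member with the lowest level in every group and went from 12.1 ± 1.74 FPKM to 4.71 ± 0.0910 FPKM (-1.51, SE 0.14, adjusted p = 1.7e-05). Polr1a, the largest subunit, was 1.94-fold lower. Rrn3, the initiation factor that recruits the polymerase to ribosomal DNA, changed least in the group (-0.70, SE 0.11, adjusted p = 0.00036). Tcof1 (treacle, -0.88) and the RNA helicase Ddx21 (-0.93) lay between them.

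Polr1c, a subunit shared by RNA polymerases I and III, had most of its fall with FK506 alone. It was at 39.3, 54.6 and 40.0 FPKM with anti-CD3, 34.6, 40.9 and 39.1 with LA, 26.2, 28.6 and 28.5 with FK506 and 23.8, 23.8 and 22.6 in the combination. FK506 alone took it below all anti-CD3 and LA libraries, and the combination lay only slightly lower. The change was -0.81 (SE 0.14, adjusted p = 0.00265) with FK506 and -1.14 (SE 0.14, adjusted p = 7.8e-05) in the combination, and the difference between these groups was -0.34 (SE 0.14, adjusted p = 0.12). Without anti-CD3 replicate 2 the changes were -0.61 with FK506 and -0.94 in the combination, and the difference between these groups, again -0.34, was called (adjusted p = 0.0222), as it was with only the 6 libraries compared.

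The 3 abundant nucleolar proteins fell together, each at least 2-fold. Nucleolin (Ncl, chr1:86344719-86359455), which binds ribosomal RNA precursors, was at 129, 135 and 166 FPKM with anti-CD3, 145, 176 and 180 with LA, 131, 138 and 189 with FK506 and 71.3, 82.4 and 83.3 in the combination. Neither single treatment separated from anti-CD3 alone, and the combination was 2.11-fold lower (edgeR adjusted p = 0.00021). Nucleophosmin (Npm1, chr11:33152498-33164142), a histone and ribosome chaperone, was the most abundant member in each group. Its FPKM were 737, 634 and 740 with anti-CD3, 780, 881 and 885 with LA, 501, 522 and 691 with FK506 and 367, 405 and 419 in the combination. The LA libraries were above all anti-CD3 libraries for Npm1 alone among the 38 genes, where 11.8% of all genes tested did the same, but the change of 0.19 (SE 0.14) had an adjusted p of 0.555. Npm1 fell by 1.05 in the combination against anti-CD3 (SE 0.14, adjusted p = 0.00013). Gnl3 (nucleostemin), a nucleolar GTPase of proliferating cells, changed by 0.00 with FK506 and by 0.02 with LA and fell by 1.28 in the combination (SE 0.14, adjusted p = 3.9e-05).

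The snoRNP proteins had the largest median fall of the 5 groups of genes beside Myc, -1.62, and 8 of 8 were at least 2-fold lower in the combination. Rrp9, which binds the U3 snoRNA, had the largest change of all 38 genes over all libraries (-2.25, SE 0.32, adjusted p = 0.00017). Its FPKM were 38.1, 95.7 and 39.7 with anti-CD3, 35.5, 41.2 and 36.7 with LA, 31.3, 32.4 and 37.1 with FK506 and 16.6, 12.8 and 13.1 in the combination. Without anti-CD3 replicate 2, which held 95.7 FPKM, the fall was 1.64 (adjusted p = 4.1e-05), smaller than those of Myc, Rrp12 and Rrp1b. The core box C/D proteins Nop56 (-1.93, SE 0.23), Fbl (the methyltransferase fibrillarin, -1.35, SE 0.15) and Nop58 (-1.15, SE 0.14) bind the snoRNAs that guide methylation. Nop56 went from 124, 268 and 178 FPKM to 64.4, 54.5 and 52.2 FPKM, with 133, 133 and 152 FPKM in LA and 125, 121 and 152 FPKM in FK506. Replicate 2 was again the highest anti-CD3 library, and the change without it was -1.56.

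The box H/ACA snoRNPs guide pseudouridylation, and their proteins fell likewise. Dkc1, the pseudouridine synthase dyskerin, was at 41.6 ± 7.03 FPKM with anti-CD3, 41.8 ± 2.72 with LA, 43.9 ± 7.25 with FK506 and 18.6 ± 0.892 in the combination. Gar1 lay at 43.3, 43.8 and 42.9 FPKM with anti-CD3, 38.3, 40.9 and 41.7 with LA, 34.7, 30.04 and 46.0 with FK506 and 17.4, 14.8 and 16.7 in the combination (-1.61, SE 0.15, adjusted p = 1.7e-05). For Gar1 all LA libraries were below all anti-CD3 libraries by a small margin, and the FK506 libraries spread on both sides. Nhp2 went from 75.1, 153 and 80.4 FPKM with anti-CD3 to 36.6, 26.4 and 26.4 FPKM in the combination, with 68.9 to 76.2 FPKM in LA and 63.5 to 82.6 FPKM in FK506 (-1.99, SE 0.27, adjusted p = 0.00012, and -1.55 without anti-CD3 replicate 2). Nolc1, a chaperone of both snoRNP classes, was at 49.97, 62.3 and 65.2 FPKM with anti-CD3, 51.0, 55.0 and 57.0 with LA, 52.2, 51.8 and 68.2 with FK506 and 23.8, 21.0 and 20.8 in the combination. Its fall was 3.11-fold (SE of the log2 value 0.14, adjusted p = 1.1e-05).

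**Figure D2:**
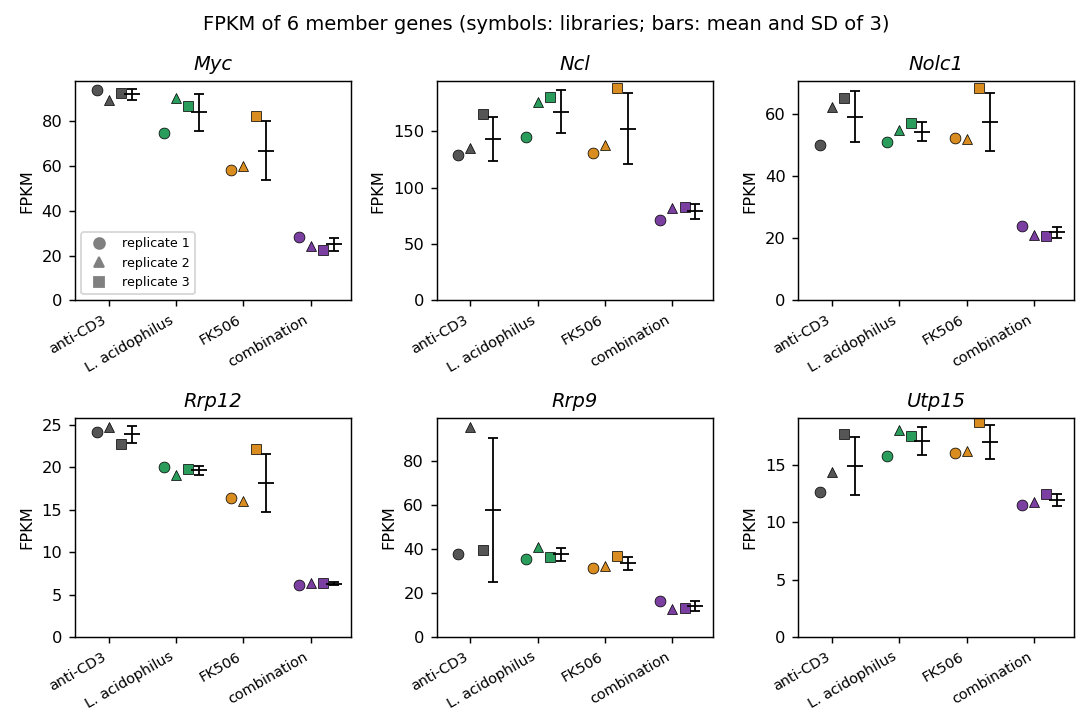
FPKM of Myc, Ncl, Nolc1, Rrp12, Rrp9 and Utp15 in the 4 groups, with symbols for replicates 1, 2 and 3 and bars for the mean and SD of 3 libraries. The combination libraries lie below all others in each panel, by a wide gap for Myc and Rrp12 and a narrow one for Utp15, and anti-CD3 replicate 2 stands out for Rrp9.

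Among the 12 small-subunit factors, the range of changes was the widest, from -2.10 to -0.52 with a median of -0.98, and 5 of 12 were at least 2-fold lower. Rrp12 (chr19:41859483-41896153), needed for nuclear export and maturation of subunit precursors, was at 24.1, 24.7 and 22.7 FPKM with anti-CD3, 20.1, 19.0 and 19.8 with LA, 16.4, 15.96 and 22.1 with FK506 and 6.08, 6.39 and 6.36 in the combination. Each single treatment lay below all anti-CD3 libraries, and the combination lay far below both. The fall was 4.29-fold (log2 -2.10, SE 0.13, adjusted p = 5.9e-06). Bysl (bystin, -1.52), Wdr43 (-1.21), Nob1, the nuclease that makes the final cut of the 18S RNA (-1.11), and Utp20 (-1.07) were the other 4 at least 2-fold lower. Without anti-CD3 replicate 2 the change of Bysl was -1.18 and that of Nob1 -0.93, while Heatr1 reached -1.01.

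Tsr1, Heatr1, Nop14, Pno1 and Ltv1, which act in early or late steps of the same subunit, fell by 0.98, 0.98, 0.96, 0.79 and 0.70 on the log2 scale. The smallest changes of all members belonged to Ddx10, an RNA helicase, and Utp15, a component of the early processome. Ddx10 lay at 14.6, 15.3 and 19.3 FPKM with anti-CD3, 14.4, 17.1 and 18.4 with LA, 13.7, 13.7 and 15.97 with FK506 and 12.6, 11.8 and 11.5 in the combination (-0.65, SE 0.13, adjusted p = 0.00143). Utp15 (chr13:98246845-98262992) lay at 12.6, 14.4 and 17.6 FPKM with anti-CD3, 15.7, 17.99 and 17.5 with LA, 16.04, 16.2 and 18.7 with FK506 and 11.5, 11.7 and 12.5 in the combination (-0.52, SE 0.12, adjusted p = 0.00344). For both genes the highest combination library was only just below the lowest of the others. The call for Utp15 was lost with limma on log2(FPKM + 1), where its change was -0.29, with a pseudocount of 0.1 (-0.31) and without TMM factors (-0.32).

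The large-subunit factors were at least 2-fold lower in 7 of 7 cases, and in 5 of 7 without anti-CD3 replicate 2, with a median of -1.37 over all libraries. Rrp1b, a nucleolar protein of pre-60S particles, was at 29.4, 24.8 and 27.8 FPKM with anti-CD3, 22.0, 23.3 and 26.5 with LA, 18.8, 19.2 and 23.9 with FK506 and 8.10, 8.28 and 8.62 in the combination (-1.95, SE 0.13, adjusted p = 5.9e-06). The rRNA methyltransferase Nop2 was at 44.6, 86.9 and 55.8 FPKM with anti-CD3, 48.0, 54.7 and 52.3 with LA, 45.4, 44.1 and 55.6 with FK506 and 20.4, 20.1 and 19.7 in the combination (-1.85, SE 0.21, adjusted p = 4.9e-05). The 3 combination values of Nop2 were nearly equal, while its anti-CD3 values spread widely, and without anti-CD3 replicate 2 the fall was 1.5. Pes1, Bop1 and Wdr12 form the PeBoW complex, which is required for the maturation of the large-subunit rRNA. They fell by 1.24, 1.37 and 1.03, and by 0.88, 1.12 and 0.96 without anti-CD3 replicate 2. Ftsj3 and Nop16 fell by 1.22 and 1.58.

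**Figure D3:**
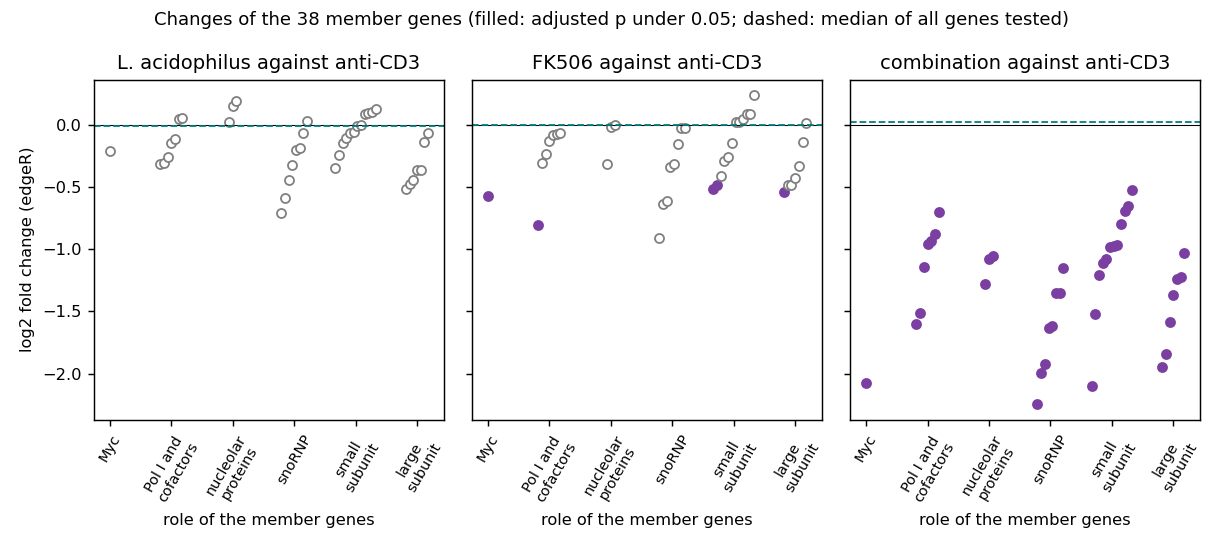
log2 fold change (edgeR) of the 38 genes against anti-CD3 alone for LA, FK506 and the combination, by role, with filled symbols at an adjusted p under 0.05 and the median of all genes tested as a dashed line. All symbols are filled in the combination, 5 are filled with FK506 and none with LA.

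With FK506 alone, 5 members were called lower and none higher, while 8.81% of all genes tested were called lower and 10.2% higher, which leaves the share of members called near that of all genes. No member was at least 2-fold lower, as 4.12% of all genes were. The median of the members was -0.24 (all genes -0.00), and it was -0.12 without anti-CD3 replicate 2 and -0.35 without FK506 replicate 3. Of the 38 changes 30 were negative (50.1% of all genes), and 14 members had an unadjusted p under 0.05, as did 33.0% of all genes tested. After Polr1c and Myc, given above, the called genes were Rrp1b (-0.54, SE 0.13, adjusted p = 0.0126), Nob1 (-0.51, SE 0.14, adjusted p = 0.0263) and Rrp12 (-0.49, SE 0.13, adjusted p = 0.0211). These 5 and Rrp9 were the genes whose FK506 libraries lay below all anti-CD3 libraries, 6 of 38, as did 12.0% of all genes tested. Rrp9 itself had a change of -0.91 (SE 0.31, adjusted p = 0.0578), which was -0.30 without anti-CD3 replicate 2. DESeq2 called 7 members, these 5 with Rrp9 and Nop56, and 13.5% of all genes lower. Only Polr1c was called in replicates 2 and 3 alone and with only the 6 libraries compared in the fit. Leaving out anti-CD3 replicate 2 left Polr1c and Rrp1b, leaving out FK506 replicate 1 or 2 left 1 gene, leaving out anti-CD3 replicate 3 gave 8, and leaving out FK506 replicate 3 gave 7, with Npm1 and Gar1 added. The members that FK506 left highest relative to anti-CD3 were Utp20 (0.24, SE 0.15, adjusted p = 0.304) and the small-subunit factor Pno1 (0.09, SE 0.15).

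With LA alone, no member was called in either direction by edgeR, where 0.0509% of all genes tested were called lower, 0.0297% at least 2-fold. An unadjusted p under 0.05 was found for 8 members and for 14.8% of all genes tested. DESeq2 called 2 members lower, Tcof1 and Rrp1b, where it called 3.01% of all genes lower, and limma called no member. The median was -0.14 (all genes -0.00), and -0.08 without anti-CD3 replicate 2. Large-subunit factors had a median of -0.36 and all 7 were negative, led by Bop1 (-0.51, SE 0.16, adjusted p = 0.185). Ncl, Npm1 and Gnl3 were between 0.02 and 0.19. With anti-CD3 replicate 2 left out, the median of the large-subunit factors was -0.11, with all 7 still negative, Bop1 was at -0.26 and Rrp1b had the largest change (-0.48). The LA libraries lay below all anti-CD3 libraries for 5 members, Tcof1, Fbl, Gar1, Rrp12 and Bop1, against 6.03% of all genes tested. Tcof1 showed the narrowest LA group, with 45.2, 44.9 and 44.8 FPKM against 47.5, 48.9 and 55.7 FPKM with anti-CD3.

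Between the single treatments, edgeR called no member at FK506 against LA, where 2.72% of all genes tested were called lower (1.48% at least 2-fold) and 4.8% higher. An unadjusted p under 0.05 was found for 4 members and for 21.1% of all genes tested. DESeq2 called Npm1 and Polr1c lower with FK506, and 5.71% of all genes. The changes were -0.51 (SE 0.14, edgeR adjusted p = 0.0518) for Npm1 and -0.50 (SE 0.14, adjusted p = 0.0551) for Polr1c. Without anti-CD3 replicate 2, edgeR called these 2 and Nob1, and without FK506 replicate 3 it called Npm1 and Myc.

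The combination was set against each of its single treatments. Against FK506 alone, 36 of 38 members were called lower, and none higher, where 10.9% of all genes tested were lower and 8.18% higher, and the median was -1.05. The 2 others were Polr1c (-0.34, given above) and Ddx10 (-0.36, SE 0.13, adjusted p = 0.0659). Rrp12 fell furthest, by 1.61 (SE 0.13, adjusted p = 0.00012), followed by Myc and Nolc1 (-1.48, SE 0.14, adjusted p = 0.00017). Without FK506 replicate 3, the highest FK506 library, 34 were called, 17 of them at least 2-fold lower, and the median was -0.92. Pes1 and Nob1 were the further genes not called. Against LA alone, 38 of 38 were lower, where 17.0% of all genes tested were called, with a median of -1.17 and Myc as the largest fall. At least 2-fold lower were 22 members against FK506 (3.6% of all genes) and 23 against LA (6.64%). The comparisons against anti-CD3, FK506 and LA share the same 3 combination libraries and are not independent of each other.

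The order of the 4 group means was the same at its lower end for all 38 genes, with the combination lowest. Above it, 13 genes had anti-CD3 highest, then LA, then FK506, and 8 had anti-CD3, FK506 and LA in that order. FK506 was highest, then LA and anti-CD3, for 7 genes, and highest, then anti-CD3 and LA, for 1. LA was highest for the others, followed by FK506 for 6 genes and by anti-CD3 for 3. These upper positions mostly did not differ beyond the spread, since edgeR called 5 members between FK506 and anti-CD3 and none in the other 2 comparisons among these groups. The median over the members of the group mean was 42.5 FPKM with anti-CD3, 38 with LA, 37.3 with FK506 and 18.9 in the combination. The coefficient of variation between libraries had a median of 16.9%, 6.51%, 13.5% and 5.09% in the same order.

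The design also allows a test of whether the combination differs from the sum of both single changes on the log2 scale. The sum had a median of -0.36 over the members and ranged from -1.62 (Rrp9) to 0.35 (Utp20), whereas the combination had a median of -1.22, and all 38 members lay below their sum. With anti-CD3 replicate 2 left out, the sum had a median of -0.21 and ranged from -1.05 (Rrp1b) to 0.36 (Pno1), with Rrp9 at -0.40, and all 38 were again below it. The departure was called for 26 members, all below the sum, where 3.0% of all genes tested were called below it and 1.35% above it, and the median departure was -0.91 (all genes -0.01). DESeq2 called 30 members and 7.95% of all genes below the sum. Of the 26 members called by edgeR, 13 departed by at least 2-fold, as did 1.42% of all genes. The count of members at least 2-fold below the sum was 20 without anti-CD3 replicate 2 and 11 without FK506 replicate 3. The smallest p-values belonged to Tsr1 (-1.13, SE 0.16, adjusted p = 0.0055), Rrp12 (-1.27, SE 0.18, adjusted p = 0.00643), Dkc1 (-1.27, SE 0.19, adjusted p = 0.00738), Gnl3 (-1.31, SE 0.20, adjusted p = 0.00751) and Utp20 (-1.42, SE 0.22, adjusted p = 0.00754). Dkc1 shows the pattern plainly, with a sum of -0.09 and a combination change of -1.35. For Myc the sum was -0.78 and the departure -1.29 (SE 0.22, adjusted p = 0.0107).

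By role, the departure was called for 3 of 3 nucleolar proteins, 6 of 7 genes of the RNA polymerase I group, 9 of 12 small-subunit factors, 4 of 8 snoRNP proteins and 3 of 7 large-subunit factors. The 12 genes not called were Polr1c, Fbl, Nop56, Rrp9, Nhp2, Ddx10, Bysl, Nob1, Bop1, Pes1, Nop2 and Nop16. For 6 of them (Nop2, Nop16, Bysl, Nop56, Nhp2 and Rrp9) the estimate was between -1.001 and -0.63 with an SE of 0.28 to 0.43. These 6 genes were among those that stood high in anti-CD3 replicate 2. So were Pes1, Bop1, Polr1c, Nob1 and Fbl, also not called (1.21 to 1.62 times the next-highest anti-CD3 library). Mybbp1a (1.27 times) was high there too but was called, and Ddx10 (0.795 times) was not high. Without anti-CD3 replicate 2, 35 members were called (4.24% of all genes), all but Polr1c, Nop14 and Ddx10, and the median departure was -1.09. Without FK506 replicate 3, 16 were called (1.43% of all genes) with a median of -0.78, among them 2 of 7 genes of the RNA polymerase I group and 4 of 12 small-subunit factors, and in replicates 2 and 3 alone 11 were. Leaving out LA replicate 2 or 3 or combination replicate 2 gave 13, and leaving out combination replicate 3 gave 15. Polr1c departed by -0.03 (SE 0.20), and its sign turned under several settings.

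**Figure D4:**
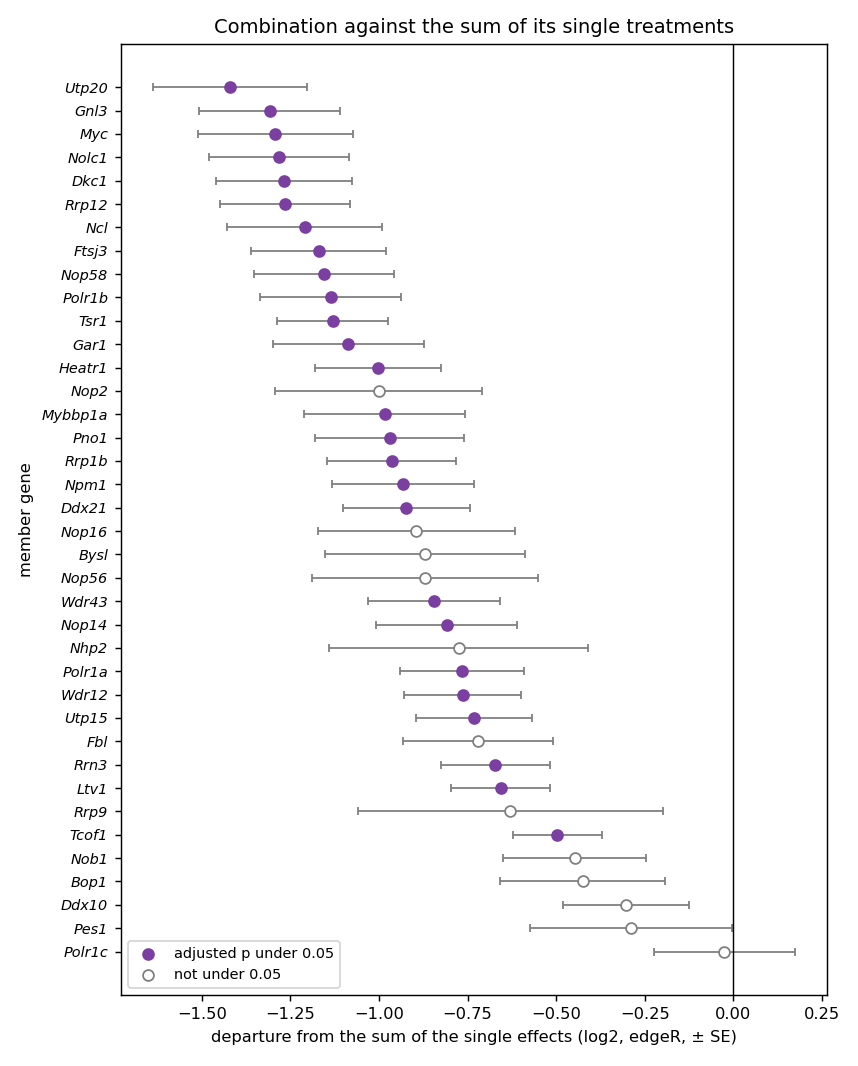
How far the combination departs from the added LA and FK506 changes for each of the 38 genes (log2, edgeR estimate with SE bars), with filled symbols at an adjusted p under 0.05. All estimates lie left of 0, from -1.42 for Utp20 to -0.03 for Polr1c, and the open symbols with wide bars include Rrp9 and Nhp2.

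Related genes outside the 38 were counted in lists, beside 21.8% of all genes tested called lower and 21.5% called higher in the combination against anti-CD3. Of 91 other ribosome assembly factors, 72 were lower and none higher (median -0.81), led by Rcl1, an 18S processing factor (-1.85), Ruvbl2, an ATPase of snoRNP assembly (-1.84), and Mrto4, a large-subunit factor (-1.80). Of 16 other genes of the RNA polymerase I machinery, 10 were lower and 1 was higher (median -0.74). The largest falls were in Polr2f (-1.42) and Polr2l (-1.26), subunits shared with other RNA polymerases, and Cd3eap (-1.18), and Taf1a was higher (0.35). Of 15 host genes that carry snoRNAs in their introns, 13 were lower and none higher (median -1.10), with Snhg4 (-1.73), Snhg3 (-1.69) and Snhg12 (-1.63) in front. Snhg12 was at 63.8, 58.7 and 60.6 FPKM with anti-CD3, 40.9, 47.8 and 52.7 with LA, 22.1, 27.6 and 34.2 with FK506 and 22.5, 22.3 and 23.2 in the combination, so FK506 alone already reached the level of the combination in 1 library.

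Textbook Myc targets of metabolism and growth outside the 38 were lower in 21 of 23 cases (median -1.62), and none was higher. Srm, the spermidine synthase, was at 69.5, 111 and 67.8 FPKM with anti-CD3 and at 18.04, 16.4 and 14.8 FPKM in the combination (-2.54, SE 0.21). Shmt2, the mitochondrial serine hydroxymethyltransferase (-2.46), and Ldha, the lactate dehydrogenase of glycolysis (-2.21), followed. The 2 targets not called were Tert (-0.48) and Odc1, the ornithine decarboxylase (-0.32). With FK506 alone 6 of 23 were called lower, where 8.81% of all genes tested were. With LA alone edgeR called none (0.0509% of all genes), although all 23 changes were negative (50.5% of all genes) with a median of -0.24, and 10 had an unadjusted p under 0.05, as did 14.8% of all genes tested. With anti-CD3 replicate 2 left out, 20 of the 23 were negative, with a median of -0.15. Of 12 proliferation markers, 11 were lower in the combination (median -0.94) and none with either single treatment. Mcm3 fell furthest (-1.18), and Mki67 had a change of -0.04. The proliferation markers summed to 1206 to 1254 FPKM with anti-CD3, 1240 to 1379 with LA, 1192 to 1419 with FK506 and 698 to 834 in the combination. Their part in the members' levels was not tested.

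The partners and antagonists of Myc divided. Max, its obligate partner, was not called (0.17, SE 0.14, adjusted p = 0.346). Mxd4, a Max partner that represses E-box genes, was at 7.83, 7.32 and 7.58 FPKM with anti-CD3, 9.24, 8.75 and 8.61 with LA, 14.2, 17.999 and 11.9 with FK506 and 25.4, 29.8 and 31.7 in the combination (1.72, SE 0.14). The 4 groups did not overlap in this order. Mxd1, of the same family, was at 10.4, 8.89 and 10.8 FPKM with anti-CD3, 12.4, 14.0 and 13.8 with LA, 15.5, 17.9 and 13.3 with FK506 and 25.9, 21.2 and 20.3 in the combination (0.96, SE 0.13). The ubiquitin protease Usp28 (1.51) and Mlxip (0.58) were also higher. Mxi1 (-0.71) and Mlx (-0.55) were lower, as was Mycn (-3.97), which had no more than 0.856 FPKM in any library. In all, 4 of these 14 genes were higher and 3 lower, with a median of 0.21. These counts are near the shares of all genes tested, of which 21.5% were called higher and 21.8% lower.

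Across the other comparisons, edgeR called no gene of these lists with LA alone, and 18 of the 91 assembly factors had an unadjusted p under 0.05, as did 14.8% of all genes tested. With FK506 alone, 8.81% of all genes tested were called lower and 10.2% higher. Called lower were 5 of the 91 assembly factors, 3 of the 16 polymerase genes (2 and 1 without anti-CD3 replicate 2) and 5 of the 15 snoRNA hosts. Of the polymerase genes 1 was called higher (2 without anti-CD3 replicate 2). Of the 14 Myc partners 2 were called lower and 3 higher. The departure from the sum, called below it for 3.0% of all genes tested, was called below it for 26 of the 91 assembly factors, 7 of the 23 Myc targets, 8 of the 12 proliferation markers, 1 of the 15 snoRNA hosts and none of the 16 polymerase genes or of the 14 Myc partners. Leaving out anti-CD3 replicate 2 gave 45 assembly factors, 15 Myc targets and 10 proliferation markers (4.24% of all genes), with 2 snoRNA hosts, 2 polymerase genes and no Myc partner. Leaving out FK506 replicate 3 gave 14 assembly factors, 5 Myc targets and 4 proliferation markers (1.43% of all genes), with 1 snoRNA host and no polymerase gene or Myc partner.

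**Figure D5:**
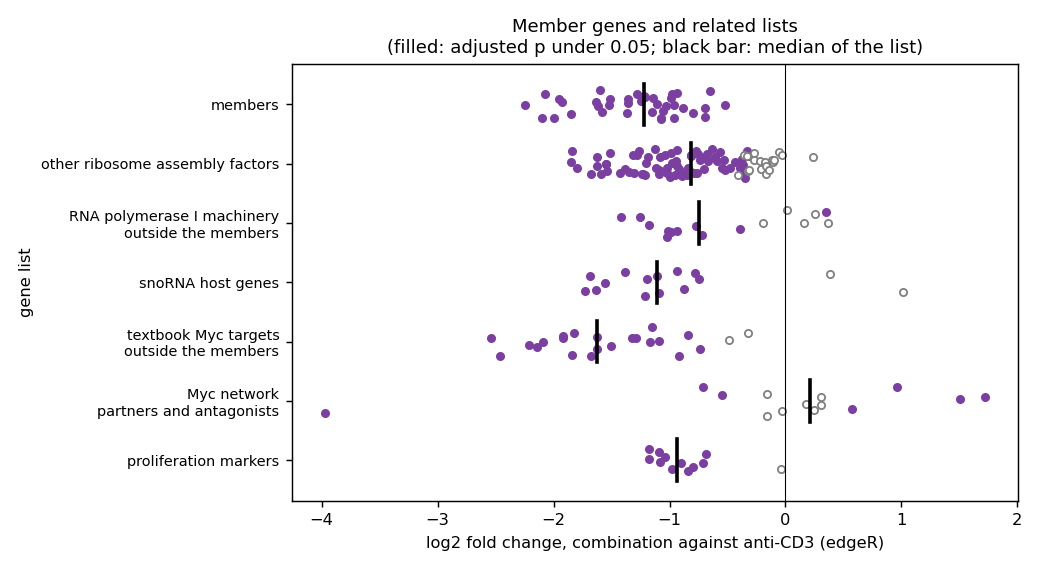
log2 fold change (edgeR) in the combination against anti-CD3 for the members and 6 related gene lists, 1 symbol per gene, filled at an adjusted p under 0.05, with the median of each list as a black bar. The members (median -1.22) and the textbook Myc targets (median -1.62) lie left of 0, and the Myc partners and antagonists lie on both sides.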

How the data were processed

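RNA-seq of mouse CD4+ T cells was analysed in 12 libraries, grouped by their sample labels into 4 groups of 3. The authors deposited 1 table with counts, FPKM and TPM for each library. The deposited counts are whole numbers without normalization, and low even counts were more frequent than odd ones, so they may be rounded estimates. The FPKM deposited by the authors are scaled to transcript length and library size. The quantile normalization named in the methods is not visible in them. The deposited TPM were not used. The submitters' processing notes name bcl2fastq 2.20.0, Trimmomatic, HISAT2 2.1.0, StringTie 2.1.3b and the builds mm10 and GRCm38, without roles.

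The 23585 genes detected (count above 0) in 3 or more libraries were tested in R 4.3.3 with edgeR 4.0.16 (quasi-likelihood test, TMM factors, 1 mean per group over all 12 libraries, Benjamini-Hochberg adjustment). The SE is the log2 fold change over the square root of the F statistic. The departure from the sum is the interaction contrast. Shares over all genes tested include weakly detected genes, whereas each member had at least 773 counts in every library. Groups of 3 against 3 cannot go below p = 0.1 in an exact permutation test. Within-group pairs of libraries differed beyond sampling noise (chi-square of 4.61 to 205 per degree of freedom). The closest pairs were replicates 2 and 3 of the combination (4.61) and of LA (9.57). Pairs with replicate 1 lay at 78.7 and 86.8 in the combination and at 60.2 and 59.5 in LA. The FK506 pairs lay at 47.7 to 62.5 and the anti-CD3 pairs at 100 to 205. The cause of this unequal spread was not tested. Deviations of same-numbered libraries from their group means correlated in every pair between LA and anti-CD3 (0.522, 0.351 and 0.3) and between the combination and LA (0.222, 0.192 and 0.164, 13392 genes), and a replicate block changed no member count there. The fit was tested beforehand on simulated data with the same spread for all genes and no outlying library. It recovered 161 to 174 of 200 genes changed 2-fold between groups, and 199 of 200 genes with a 4-fold departure. Departures as small as those of the members were not simulated.

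Alternatives were RLE or no TMM factors, other filters, DESeq2 1.42.0, limma 3.58.1 on log2(FPKM + 1) or log2(FPKM + 0.1), a replicate block, fewer libraries and an at least 2-fold change. Members and lists were chosen with earlier results of these data known. Myc, the 10 largest and 2 smallest changes in the combination and the 5 smallest p-values of the departure were given in full. The 3 largest called changes of each related list were named, except for the proliferation markers. Gene positions and promoters came from RefSeq (GRCm38.p6), matched by gene identifier or symbol. Figures were drawn with matplotlib 3.10.9.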

Additional observations from a re-analysis of the deposited data

Results flagged for a closer look

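The change under FK506 differed between cells with and without LA for 26 members, by the test of the interaction on the log2 scale (edgeR, adjusted p under 0.05), and each of the 26 estimates was negative. Of all genes tested, 3.0% were called below and 1.35% above the sum. The count of members ranged from 13 to 35 when 1 library was left out. The estimates were -1.42 for Utp20, -1.31 for Gnl3, -1.29 for Myc, -1.28 for Nolc1, -1.27 for Dkc1, -1.27 for Rrp12, -1.21 for Ncl, -1.17 for Ftsj3, -1.16 for Nop58, -1.14 for Polr1b, -1.13 for Tsr1, -1.09 for Gar1 and -1.003 for Heatr1. The others were -0.98 for Mybbp1a, -0.97 for Pno1, -0.96 for Rrp1b, -0.93 for Npm1, -0.92 for Ddx21, -0.85 for Wdr43, -0.81 for Nop14, -0.77 for Polr1a, -0.76 for Wdr12, -0.73 for Utp15, -0.67 for Rrn3, -0.66 for Ltv1 and -0.50 for Tcof1. Groups of 3 libraries were too small for a test of single outlying samples.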

How the results depend on the processing

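The 38 falls in the combination against anti-CD3 were called under all settings run except for Utp15 with limma (both pseudocounts) and without TMM factors, and except for the 11 members under 2-fold at a 2-fold call. Leaving out each library in turn gave 38 to 38 members lower there and against LA, 34 to 37 against FK506, 1 to 8 for FK506 against anti-CD3 (5 with all libraries), 0 to 0 for LA against anti-CD3, 0 to 3 for FK506 against LA and 13 to 35 for the departure (26 with all). For FK506 against anti-CD3, 1 member was called with only the 6 libraries compared, 1 in replicates 2 and 3 alone and 0 at least 2-fold, and DESeq2 called 7. For LA against anti-CD3, DESeq2 called 2. For FK506 against LA, where edgeR called 0, 1 was called without TMM factors, 1 with filterByExpr, 1 without a filter, 2 with DESeq2, 1 with limma on log2(FPKM + 1), 2 with a pseudocount of 0.1 and 1 with only the 6 libraries. An at least 2-fold change left 22 members against FK506, 23 against LA and 13 for the departure, and replicates 2 and 3 alone left 11 for the departure. Without anti-CD3 replicate 2 or FK506 replicate 3, alternatives chosen after seeing the data, the at least 2-fold departures numbered 20 or 11, and the at least 2-fold falls were 24 to 27 against anti-CD3, 17 to 22 against FK506 and 23 against LA. The Polr1c departure (-0.03) turned to 0.0155 with RLE size factors and 0.0156 with DESeq2, and ranged from -0.222 to 0.0792 when 1 library was left out, above 0 without anti-CD3 replicate 1 or 3, LA replicate 2 or combination replicate 3. The change of Nob1 with LA ranged from -0.240 to 0.0345 when 1 library was left out, above 0 without anti-CD3 replicate 2. Leaving out 1 library turned the sign of 12 members with LA, Nob1 and Bysl (-0.400 to 0.0996) among them, of 12 with FK506 against anti-CD3 and of 17 with FK506 against LA, none of them called, and of none in the combination against any group. The cause of these shifts was not tested. With a replicate block, 2 members were called for FK506 against LA, and the other member counts were as without it (5 for FK506 against anti-CD3, 26 for the departure). Outside the pairs given under the processing, the correlation of same-numbered libraries was 0.1 or lower in at least 1 pair of each comparison. Without TMM factors the median of all genes moved by 0.205 in the combination against anti-CD3 and by 0.131 against LA, and the calls were 6380 higher and 3756 lower in place of 5076 and 5133. With limma on log2(FPKM + 1) they were 6532 and 3774. With DESeq2 the members called for the departure were 30, where 7.95% of all genes were called below the sum. Depth did not limit the members, since each had at least 773 counts in every library.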
